A study of Caenorhabditis elegans with 55 samples.

Results

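The animals were *Caenorhabditis elegans* of strain JMC101, in which the allele tor67 puts gfp::3xflag into csr-1 on chromosome IV, collected whole at the L4 larval stage after growth at 20 °C. The Argonaute CSR-1 was pulled down through its GFP tag with anti-GFP beads, and the small RNAs recovered with it were sequenced beside total small RNA of the lysate. The tag of this strain is carried by both isoforms of the protein, so the precipitate holds total CSR-1. The 4 libraries, 2 immunoprecipitates (IPs) and 2 inputs, are 4 of the 55 samples of the series, and their table lists 58135 features of 24 classes, a feature being a gene or other element read on one strand. Comparisons were made with the IPs and inputs of JMC164 (2 each), which holds the tor67 tag in exon 2 together with mg660, a stop codon (G120*) that leaves the shorter isoform CSR-1b, and with those of JMC151 (2 each), where the allele tor160 puts gfp::3xflag into exon 1 so that the longer isoform CSR-1a is tagged. Poly(A) mRNA of JMC164 and of wild-type Bristol N2 (3 libraries each, L4, 20 °C) gave a further readout of the bound genes. In the titles of the mRNA samples the JMC164 mutation is called tor159, while their genotype field gives mg660. Nothing in the labels says that replicates came from separate cultures, so the p-values measure only the spread between these libraries, which may be technical. An IP from animals without a tag was not analysed here.

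CSR-1 is an Argonaute that is needed for fertility and embryonic development. It binds short antisense RNAs, called 22G-RNAs after their usual length and first base, which the RNA-dependent RNA polymerase EGO-1 copies from mRNAs of the germ line. Many of the genes it targets are expressed in germ cells, and CSR-1 has been tied both to the protection of these genes from the silencing Argonautes of the WAGO group and to the cleavage of some mRNAs in embryos. CSR-1b is present in the germ line throughout, and CSR-1a appears during spermatogenesis and in some somatic tissues such as the intestine.

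The libraries held an estimated 17441648 and 15799362 reads in the IPs, against 3850318 and 4648955 reads in the inputs, so low features were measured with more reads in the IPs. Of these reads 2.60% to 8.28% fell in no feature and were left out, and all values below are RPM, scaled to 1000000 reads assigned to a feature. Log2 values of the 2 IPs correlated with r = 0.98 and those of the 2 inputs with r = 0.95 over the 16094 features tested. In the N2 mRNA libraries every one of the 12 germline, 8 sperm, 8 muscle, 8 hypodermis and 8 neuron markers, and the 7 intestine markers that the table names, reached 10 counts in all 3 libraries.

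Antisense reads to protein-coding genes made up nearly the whole IP. They took 92.96% and 90.48% of the assigned reads in the IPs, against 34.32% and 33.84% in the inputs (means 91.7% ± 1.76 and 34.1% ± 0.341, SD, n = 2 each). MicroRNAs (miRNAs), which repress mRNAs through other Argonautes (ALG-1 and ALG-2), were 1.00% and 4.42% of the IPs, against 33.65% and 40.80% of the inputs. Every other large class of the input was a smaller share of the IP. Antisense transposon reads were 0.849% ± 0.00489 of the IPs and 5.20% ± 0.201 of the inputs. Antisense pseudogene reads averaged 1.18% ± 0.0792 in the IPs and 4.73% ± 0.00587 in the inputs. Antisense reads to long intergenic RNAs (lincRNAs) averaged 0.284% ± 0.00882 in the IPs and 2.44% ± 0.0194 in the inputs. The piRNAs, which guide the Argonaute PRG-1 in germ cells, averaged 0.176% ± 0.0177 in the IPs and 2.06% ± 0.581 in the inputs. Sense reads to protein-coding genes averaged 0.854% ± 0.101 in the IPs and 3.03% ± 0.454 in the inputs, and tRNA reads 0.0830% ± 0.0215 in the IPs and 1.81% ± 0.146 in the inputs. Ribosomal RNA reads averaged 0.740% ± 0.559 in the IPs and 5.58% ± 3.44 in the inputs. In each of these classes both IPs lay on one side of both inputs. Besides coding genes, antisense snRNA reads (0.145% ± 0.0177 in the IPs, 0.0301% ± 0.00146 in the inputs), antisense rRNA reads (0.0355% ± 0.00197 in the IPs, 0.00667% ± 0.00406 in the inputs) and antisense tRNA reads (0.00654% ± 0.00111 in the IPs, 0.00140% ± 0.000338 in the inputs) were larger shares of the IPs, at a low level. The shares were not tested, since an exact permutation test of 2 libraries against 2 gives no p below 0.333. With miRNA reads left out of the totals, antisense coding reads were 94.3% ± 0.538 of the IPs and 54.5% ± 3.85 of the inputs (SD, n = 2 each).

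**Figure D1:**
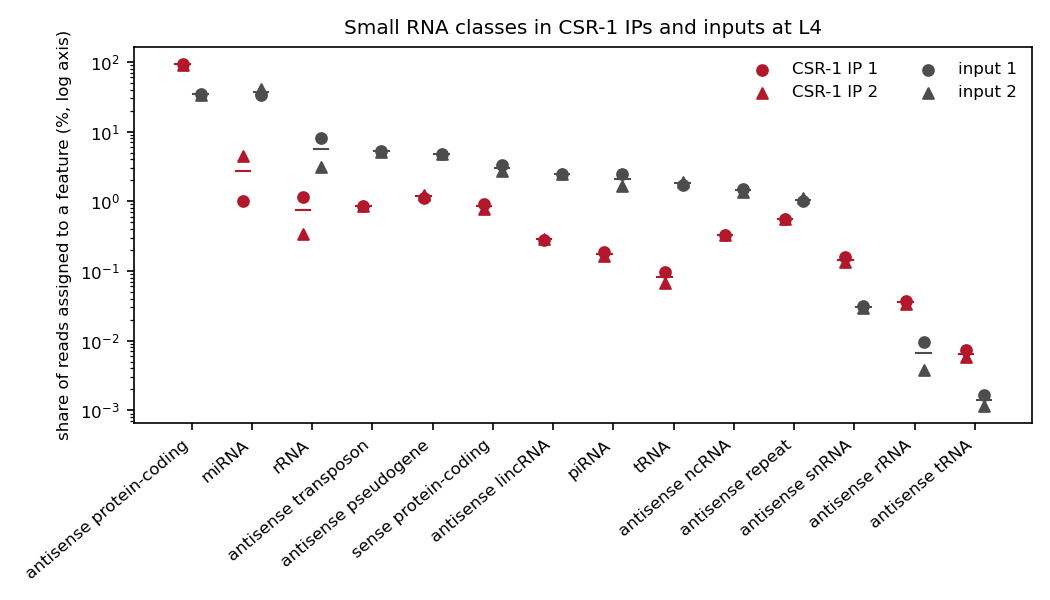
Share of the reads assigned to a feature, in percent on a log axis, for the larger classes in each of the 4 libraries, with circles for replicate 1, triangles for replicate 2 and short lines for the mean of each pair. Antisense coding reads lie near 92% in the IPs and 34% in the inputs, and the 2 IPs stand apart from each other in miRNA (1.00% and 4.42%).

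Single features showed the same split. In limma's test on log2(RPM + 1) (adjusted p under 0.05 and a change of at least 2-fold), 5717 of 16094 features (35.5%) were enriched in the IPs and 5294 (32.9%) were depleted, with a median log2 fold change of 0.10. Of the 5717 enriched features 5291, or 92.5%, were antisense coding, and these 5291 were 53.8% of the 9828 antisense coding features tested. Another 1974 antisense coding features (20.1%) were depleted. By strand, 5539 of 11138 antisense features and 178 of 4956 sense features were enriched, whereas 2602 antisense and 2692 sense features were depleted. The level of every value depends on how the libraries are scaled to each other, since the inputs hold much miRNA that the IPs lack. With TMM factors computed over every feature, IP over input values shifted by 0.90 on the log2 scale, and 6963 features were enriched and 4131 depleted. With miRNA left out of the totals, the median of the tested features was -0.29, and 5005 were enriched and 6171 depleted. Both scalings were chosen after seeing the data.

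A feature needed 10 reads in 2 of the 4 libraries and could pass on its IP reads alone, so counts of calls describe the features that passed. The antisense coding features did not spread evenly. Their median log2 fold change was 1.36 (2.14 with the TMM factors over every feature and 0.86 without miRNA), and 3160 of 9828 (32.1%) lay between 2.5 and 3.5. Only 16 exceeded 3.5, and the highest reached 4.22. At the other end 1151 lay below -2, and the lowest was -4.83. Calls also differed by level, here the mean over IPs and inputs together. Enrichment in the IPs itself lifts a gene into a higher step, so part of the rise is built in. Of genes whose antisense reads averaged 100 to 300 RPM over the 4 libraries 87.0% were enriched, of those from 10 to 30 RPM 60.9%, and of those from 1 to 3 RPM 7.60%, where few reads back each value. Above 300 RPM 76.3% of 367 genes were enriched and 23.4% depleted, so the most abundant antisense small RNAs fell on both sides.

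**Figure D2:**
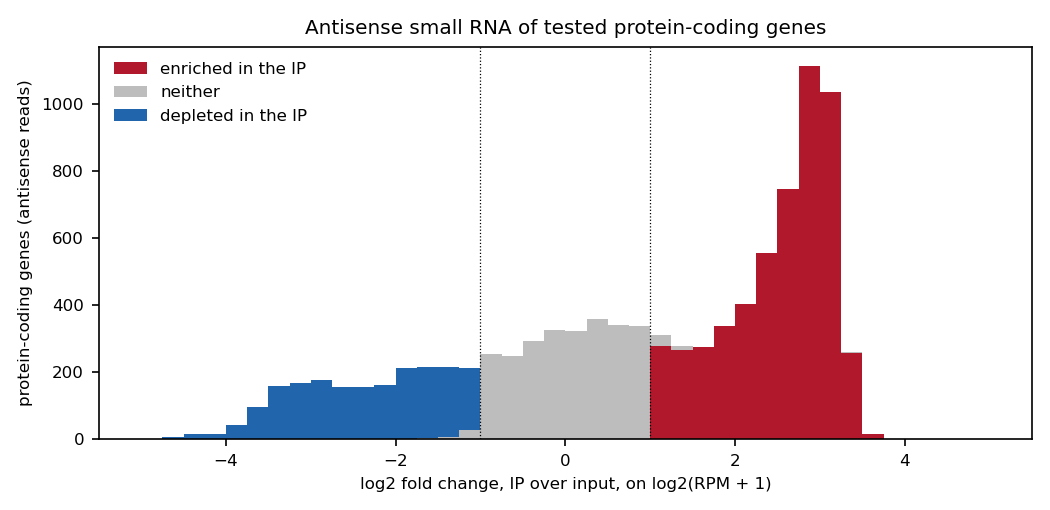
Number of protein-coding genes (antisense reads, 9828 tested) in each 0.25-wide step of log2 fold change, IP over input, coloured by call, with dotted lines at the 2-fold limits. A narrow peak near 3 holds most of the 5291 enriched genes, and the 1974 depleted genes form a low, broad tail down to -4.83.

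The genes with the most antisense reads in the IPs, picked after their values were seen, were all enriched by a similar factor. cls-2, a CLASP protein that stabilises microtubules, led with 4862 and 6114 RPM in the IPs, against 616 and 763 RPM in the inputs, a log2 fold change of 2.99 ± 0.28 (SE). set-9, which encodes a SET-domain protein, had 5058 and 4607 RPM in the IPs, against 548 and 614 RPM in the inputs. glh-4, a Vasa-like helicase of germ granules, had 4262 and 4126 RPM in the IPs, against 398 and 445 RPM in the inputs, a log2 fold change of 3.31 ± 0.22 (SE). The IP values of these genes stood far above the input values in both replicates. wago-4, itself an Argonaute of the germ line, had 3475 and 4494 RPM in the IPs, against 385 and 540.5 RPM in the inputs. tebp-2, a telomere-binding protein, had 3927 and 4205 RPM in the IPs, against 434 and 495 RPM in the inputs. herd-1, snrp-200 (a spliceosomal helicase) and hum-2 (a class V myosin) complete the 8 highest, with log2 fold changes of 3.19, 3.01 and 3.32. The reads were spread over many genes: 653 and 655 genes made up 50% of the antisense coding reads of the IPs, against 331 and 354 genes in the inputs, and the 10 highest genes held 4.27% and 4.54% in the IPs, against 8.18% and 8.24% in the inputs.

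**Figure D3:**
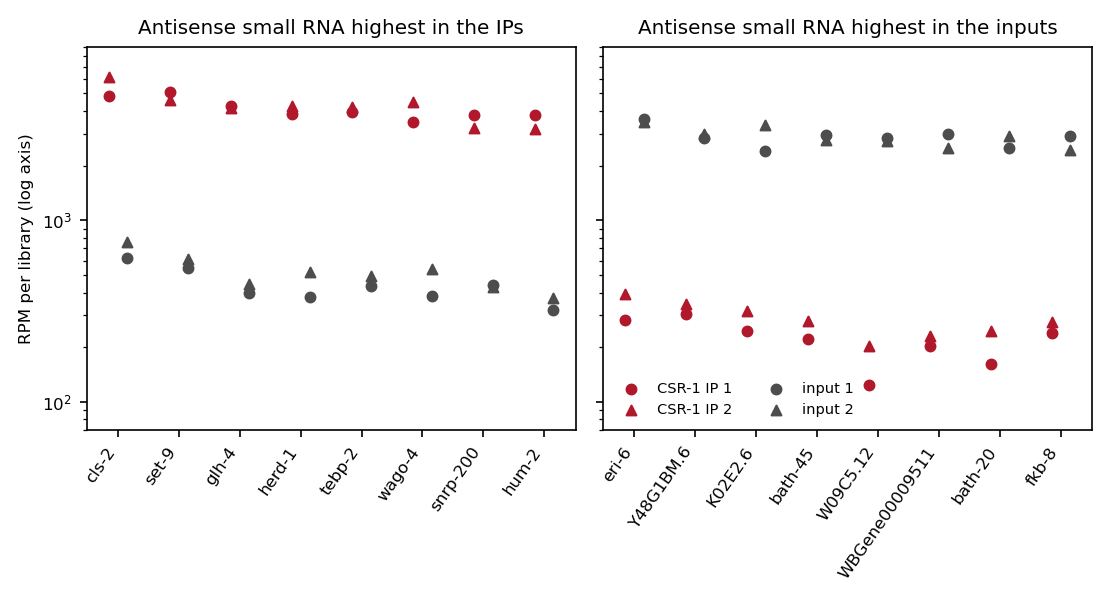
Antisense small RNA in RPM on a log axis, per library, for the 8 genes highest in the IPs (left) and the 8 highest in the inputs (right), with red marks for IPs and grey marks for inputs. On the left every IP lies above every input, from cls-2 to hum-2, and on the right every IP lies below every input.

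Among antisense coding features the largest fold changes belonged to genes with fewer reads than these. sin-3, the scaffold of a histone deacetylase complex, had 88.02 and 92.2 RPM in the IPs, against 3.85 and 3.95 RPM in the inputs, a log2 fold change of 4.22 ± 0.19 (SE). Its adjusted p in limma was 3.88e-05. him-3, a HORMA-domain protein of the meiotic chromosome axis, had 809 and 646 RPM in the IPs, against 56.6 and 54.01 RPM in the inputs, a log2 fold change of 3.68 ± 0.18 (SE). Both libraries of each kind were close to each other in these genes. dars-2, the mitochondrial aspartyl-tRNA synthetase, had 126 and 113 RPM in the IPs, against 6.796 and 11.6 RPM in the inputs, and mtcu-2, which modifies mitochondrial tRNA, had 144 and 118 RPM in the IPs, against 9.63 and 9.78 RPM in the inputs. The other 8 of the 12 highest antisense coding features with both IPs above both inputs were H31G24.3, C28C12.12, F55A12.2, R144.10, Y17G7B.12, the catalase gene ctl-3, the cyclophilin gene cyn-13 and the ubiquitin-conjugating enzyme gene ubc-14, with log2 fold changes from 3.55 to 3.63.

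Genes of meiosis, chromosome segregation, DNA replication, the cell cycle and oocytes were enriched almost throughout, read against 53.8% of all antisense coding features. Genes of sperm function, given further below, were not. Of 31 genes of the synaptonemal complex, the meiotic axis and crossing over, 31 were enriched and 0 depleted, with a median log2 fold change of 3.03. The lowest was zim-1 at 1.02, and syp-5 and syp-6, subunits of the central region, reached 3.42 and 3.31. All 37 genes of the kinetochore, condensin and chromosome segregation list were enriched (median 3.08, lowest 2.31). hcp-6, a condensin II subunit, had 1175 and 1218 RPM in the IPs, against 103.7 and 145 RPM in the inputs, a log2 fold change of 3.28 ± 0.21 (SE). All 26 DNA replication genes were enriched (median 3.01), among them the helicase subunit gene mcm-6 with 398 and 378 RPM in the IPs, against 38.2 and 40.7 RPM in the inputs. Of 22 cell cycle kinases and cyclins 21 were enriched (median 2.93), such as cyb-3, a cyclin B, at 3.27 and zyg-1, the centriole kinase, at 3.30. All 24 oocyte and eggshell genes tested were enriched (median 2.98); egg-5, a pseudophosphatase of the egg-to-embryo transition, had 898 and 526 RPM in the IPs, against 83.5 and 58.01 RPM in the inputs.

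Lists of genes needed in every cell were enriched too. All 33 proteasome subunits passed (median 3.02, lowest 1.21), with rpt-5, an ATPase of the base, at 325 and 259.5 RPM in the IPs, against 30.01 and 27.5 RPM in the inputs. All 65 mitochondrial ribosomal proteins passed (median 2.86), as did 30 of 31 aminoacyl-tRNA synthetases (median 2.92). Of 26 nuclear pore proteins 25 were enriched (median 3.04), and npp-26 was depleted with 0.767 and 0.845 RPM in the IPs, against 3.398 and 3.26 RPM in the inputs, a call that ended without either IP, with a pseudocount of 5 RPM and with the TMM factors over every feature. Of 75 cytosolic ribosomal proteins 72 were enriched, with a lower median of 2.41. rpl-5 had 124 and 133 RPM in the IPs, against 15.6 and 16.3 RPM in the inputs, a log2 fold change of 2.93 ± 0.16 (SE). rpl-11.2 and rpl-42 were depleted, at -2.04 and -1.90, and rpl-37 passed neither test at 0.54.

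**Figure D4:**
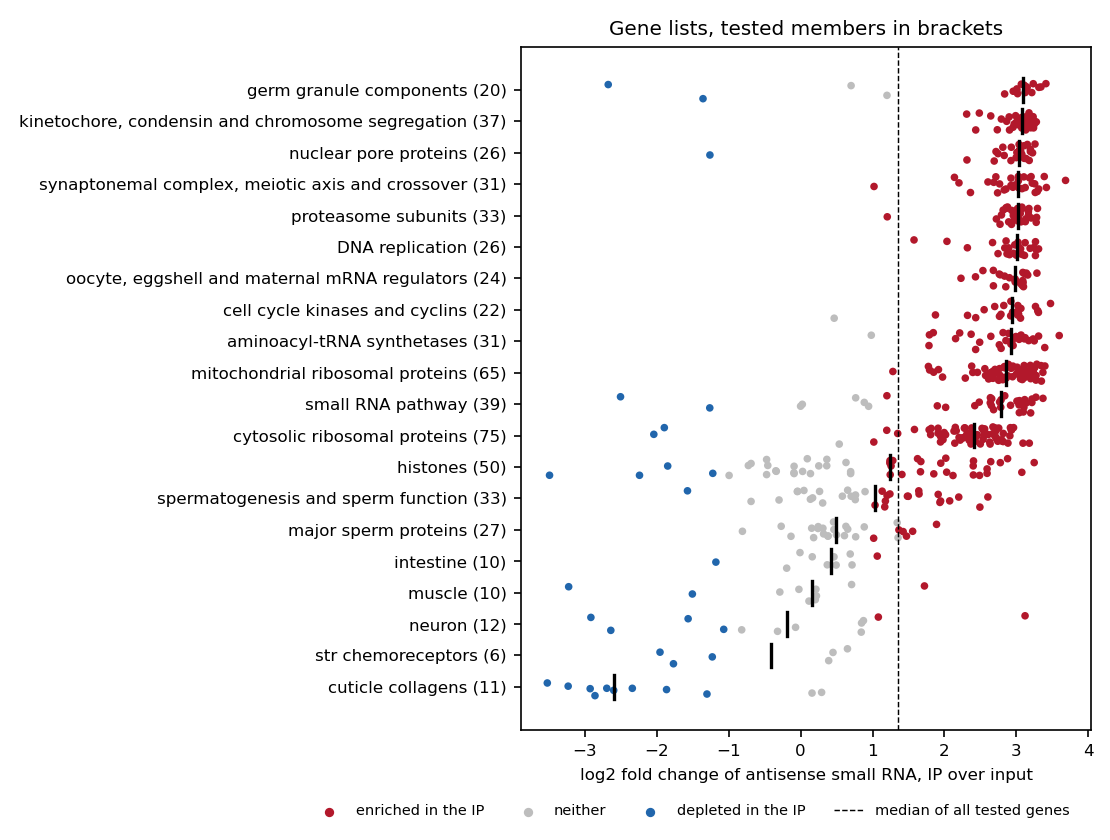
Log2 fold change, IP over input, of the antisense small RNA of each tested gene in 20 lists (tested members in brackets), coloured by call, with a black bar at the list's median and a dashed line at the median of all tested antisense coding features (1.36). The lists from germ granule components down to cytosolic ribosomal proteins have medians from 3.09 to 2.41, and the collagens have one of -2.60.

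The small RNA machinery was itself among the bound genes. Of 39 tested genes of the pathway 32 were enriched and 2 depleted (median 2.79). Antisense to csr-1 there were 1613 and 1571 RPM in the IPs, against 164 and 236 RPM in the inputs, a log2 fold change of 3.01 ± 0.23 (SE), while its sense reads were 3.77 and 2.14 RPM in the IPs, against 9.91 and 2.79 RPM in the inputs. ego-1, the polymerase that makes CSR-1's small RNAs, had 1673 and 1561 RPM in the IPs, against 163 and 184 RPM in the inputs, a log2 fold change of 3.22 ± 0.18 (SE). prg-1, the piRNA Argonaute, had 2932 and 3149 RPM in the IPs, against 493 and 596 RPM in the inputs, a log2 fold change of 2.48 ± 0.23 (SE). Argonaute genes of the silencing branch were also enriched: ppw-2 and wago-1 at 3.22 and 3.03, hrde-1, the nuclear Argonaute of inherited silencing, at 2.84, and ppw-1 at 2.68. So were the mutator genes mut-7, mut-14 and mut-16 at 3.10, 3.27 and 3.14, the polymerases rrf-1 and rrf-3 at 3.11 and 3.20, and dcr-1, which encodes Dicer, at 3.04. sago-2 passed as well, with 11.5 and 5.65 RPM in the IPs, against 0 and 0.233 RPM in the inputs.

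rrf-2, a polymerase paralog, was depleted with 10.1 and 13.3 RPM in the IPs, against 79.1 and 62.8 RPM in the inputs, a log2 fold change of -2.50 ± 0.22 (SE). parn-1, which trims piRNA ends, was depleted with 169 and 189.7 RPM in the IPs, against 448 and 414 RPM in the inputs, a log2 fold change of -1.26 ± 0.16 (SE), and lost the call (adjusted p = 0.15 in limma) with the TMM factors over every feature. The miRNA Argonautes alg-1 and alg-2 had log2 fold changes of 0.02 and 0.89, and sago-1 and vsra-1 had 0.00 and 0.95, none of which passed. The Argonautes of sperm had values below 2. alg-3 had 30.97 and 49.7 RPM in the IPs, against 26.96 and 19.1 RPM in the inputs, and did not pass (0.77 ± 0.29). With the TMM factors over every feature alg-3 passed at 1.635, and its value was 1.005 without input 1 and 1.099 without IP 1. alg-4 passed at 1.20 ± 0.26 but lost the 2-fold limit without input 1, without IP 2 and without miRNA, and wago-10 passed at 1.90 ± 0.35. Of 20 germ granule genes 16 were enriched (median 3.09), including pgl-1 and pgl-3 at 3.14 and 2.84, glh-2 at 3.41, znfx-1 at 3.11 and mip-1 at 3.34. meg-4, a scaffold of embryonic P granules, was depleted with 9.38 and 6.97 RPM in the IPs, against 64.5 and 50.6 RPM in the inputs. Its paralog meg-3 was depleted at -1.36, a call that ended without input 1, without IP 2, with a pseudocount of 5 RPM and with the TMM factors over every feature, and meg-1 and meg-2 passed neither test.

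Sperm and histone genes fell on both sides of the threshold. Of 33 genes of spermatogenesis and sperm function 17 were enriched and 1 depleted (median 1.03), a share of 51.5% enriched beside 53.8% of all antisense coding features, and 9 were enriched without IP 2 and 9 without miRNA. spe-44, a transcription factor of spermatogenesis, had 38.5 and 53.9 RPM in the IPs, against 5.95 and 8.85 RPM in the inputs, a log2 fold change of 2.49 ± 0.28 (SE). spe-39 and spe-49 reached 2.60 and 2.07, fog-3 and fog-1, which set sperm fate, 1.91 and 1.65, and the sperm phosphatases gsp-3 and gsp-4 1.17 and 1.13. Of 27 genes for major sperm proteins, the cytoskeletal protein of nematode sperm, 6 were enriched and 0 depleted (median 0.50). That count was 3 without IP 1, 1 without IP 2, 19 with the TMM factors over every feature and 2 without miRNA. msp-142 had 23.7 and 32.3 RPM in the IPs, against 9.66 and 9.69 RPM in the inputs. The summed level of the 27 was 0.0269% and 0.0422% of the IPs, against 0.0256% and 0.0221% of the inputs. Of 50 histone genes 26 (52%) were enriched, also near the share of all antisense coding features, and 4 were depleted (median 1.24), with 17 enriched without IP 1, 16 without IP 2 and 18 without miRNA. The H3.3 genes his-72 and his-74 reached 3.08 and 2.88. The linker histone gene his-24 was depleted with 68.8 and 103 RPM in the IPs, against 1089 and 840.4 RPM in the inputs, a log2 fold change of -3.49 ± 0.25 (SE). Genes for major sperm proteins and for core histones exist in near-identical copies, several histone copies share a symbol in the name table, and how their shared reads were split is not stated, so values of single copies are uncertain.

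Most listed collagen and chemoreceptor genes were too low to test. Of the tested genes of muscle, intestine and neurons few were enriched, read against 53.8% of all antisense coding features. Depleted were 2 of 10 muscle, 1 of 10 intestine and 4 of 12 neuron genes, beside 20.1% of all antisense coding features. Of 154 cuticle collagens 11 could be tested, of which 9 were depleted and 0 enriched (median -2.60); col-45 had 4.13 and 5.27 RPM in the IPs, against 63.99 and 64.2 RPM in the inputs, a log2 fold change of -3.52 ± 0.22 (SE). Of 20 muscle genes 10 were tested. unc-54, the body-wall myosin heavy chain, was depleted with 1.83 and 2.52 RPM in the IPs, against 28.9 and 28.1 RPM in the inputs, a log2 fold change of -3.23 ± 0.28 (SE), lev-11, a tropomyosin, was depleted at -1.50, and act-4, an actin with close paralogs, was enriched at 1.72. The lev-11 call was lost without input 2, without IP 1, with a pseudocount of 5 RPM, with no filter and with the TMM factors over every feature. Of 24 intestine genes 10 were tested, and only spp-1 (1.07) was enriched and only vit-1 (-1.18) depleted, both calls that ended with a pseudocount of 5 RPM. Of 12 tested neuron genes unc-10, egl-21, ric-4 and rab-3 were depleted, and snb-1, which encodes synaptobrevin, was enriched with 89.2 and 101 RPM in the IPs, against 9.63 and 10.5 RPM in the inputs; unc-13 was enriched at 1.08, a call lost with TMM factors, in edgeR and without input 1. The ric-4 call was lost with a pseudocount of 5 RPM and with the TMM factors over every feature. Of 190 str chemoreceptor genes 6 were tested, 0 enriched and 3 depleted. Without single libraries 0 to 3 intestine, 0 or 1 muscle and 1 to 4 neuron genes were enriched. For the genes too low to test, fewer cells of a type and less small RNA per cell cannot be told apart in whole animals.

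The antisense small RNAs that were highest in the inputs, picked after their values were seen, were depleted from the IPs. How the size of this depletion compares with that of enrichment depends on the scaling. The TMM factors over every feature shifted IP over input values by 0.90 on the log2 scale. eri-6, which encodes a helicase of the endogenous RNAi pathway, had 284 and 391 RPM in the IPs, against 3602 and 3495 RPM in the inputs, a log2 fold change of -3.41 ± 0.25 (SE). bath-45, a BATH-domain gene, had 221 and 280 RPM in the IPs, against 2963 and 2776 RPM in the inputs, a log2 fold change of -3.52 ± 0.22 (SE). K02E2.6 had 244 and 315 RPM in the IPs, against 2422 and 3366 RPM in the inputs. The other 5 of the 8 highest in the inputs, Y48G1BM.6, W09C5.12, WBGene00009511, bath-20 and fkb-8, had log2 fold changes from -4.13 to -3.16. The lowest antisense coding value was that of fbxa-52, an F-box gene, with 7.08 and 12.6 RPM in the IPs, against 319 and 279 RPM in the inputs, a log2 fold change of -4.83 ± 0.27 (SE). Together the 1974 depleted genes held 2.098% and 2.476% of the IPs, against 20.33% and 19.04% of the inputs, while the 5291 enriched genes held 88.2% and 85.0% of the IPs, against 11.3% and 12.3% of the inputs. These sums follow from how the genes were chosen and are given as a description.

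The strands of the same genes are given as a description too, since the antisense values chose the genes. For each sense read of the 5291 enriched genes there were 245 and 318 antisense reads in the IPs, against 12.2 and 19.2 in the inputs. For the 1974 depleted genes there were 15.01 and 17.54 antisense reads per sense read in the IPs, against 23.1 and 22.7 in the inputs. Some sense features were enriched all the same, 115 of 2611 coding (4.40%). The highest was gnrr-2, a receptor gene, with 84.98 and 84.1 RPM in the IPs, against 9.34 and 9.78 RPM in the inputs, a log2 fold change of 3.02 ± 0.17 (SE). The count fell to 8 without IP 1 and to 10 without IP 2, and was 353 with the TMM factors over every feature. Where genes overlap on opposite strands, a read antisense to one is sense to the other, and the files do not say how such reads were assigned.

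MicroRNAs were depleted nearly without exception: 160 of 163 tested, with a median log2 fold change of -3.57. miR-58a-3p, the most abundant in the inputs, had 1822 and 10800 RPM in the IPs, against 69110 and 165400 RPM in the inputs, a log2 fold change of -4.59 ± 1.07 (SE). The call was lost without IP 1 (limma adjusted p = 0.15), with a pseudocount of 5 RPM and with the TMM factors over every feature. miR-52-5p had 2655 and 8220 RPM in the IPs, against 74120 and 42800 RPM in the inputs. Its call was lost without IP 1 (log2 fold change -2.78), with a pseudocount of 5 RPM and with the TMM factors over every feature. miR-1-3p, the muscle miRNA, had 709 and 4807 RPM in the IPs, against 25920 and 49800 RPM in the inputs. In these 3 both IPs were below both inputs, and IP 2 was above IP 1. miR-90-3p differed less between the IPs, with 1059 and 1201 RPM in the IPs, against 6951 and 7278 RPM in the inputs, a log2 fold change of -2.66 ± 0.29 (SE). miR-70-3p, miR-82-3p and miR-44-3p, the others of the 6 highest in the inputs, had log2 fold changes of -4.82, -4.08 and -4.85. The 1 enriched miRNA, miR-8195-3p, had 1.42 and 2.08 RPM in the IPs, against 0.283 and 0 RPM in the inputs, a call that was lost with a pseudocount of 5 RPM, and no miRNA was enriched without either IP.

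Of 1526 piRNAs 1367 were depleted and 2 enriched, 21ur-13757 and 21ur-9360, the calls of which were lost with a pseudocount of 5 RPM. Without input 1 the number depleted was 741. The lowest, 21ur-5554, had 2.65 and 0.13 RPM in the IPs, against 125 and 124 RPM in the inputs, a log2 fold change of -5.95 ± 0.54 (SE). Of 39 antisense lincRNA features 31 were depleted, and linc-22, the most abundant, had 1653 and 1807 RPM in the IPs, against 14870 and 14840 RPM in the inputs, a log2 fold change of -3.10 ± 0.36 (SE). Of 429 antisense pseudogene features 213 were depleted and 61 enriched (31 without IP 1 and 26 without IP 2). Of 182 antisense transposon features 127 were depleted and 10 enriched (4 without IP 1 and 6 without IP 2). The enriched ones included TC5A, a Tc5 DNA transposon, with 630.2 and 266 RPM in the IPs, against 44.5 and 33.8 RPM in the inputs, a log2 fold change of 3.37 ± 0.41 (SE), and CER1, an LTR retrotransposon that is transcribed in the germ line, with 464 and 388 RPM in the IPs, against 39.6 and 49.6 RPM in the inputs, a log2 fold change of 3.23 ± 0.19 (SE). Tc3-CeIIb, a copy of Tc3, was among the lowest with 7.98 and 15.9 RPM in the IPs, against 296 and 306 RPM in the inputs. Of 161 tRNA features 64.6% were depleted (69 features without input 1) and 23 enriched, and 0 were enriched with a pseudocount of 5 RPM or without either IP. WBGene00023092, a tRNA gene, had the lowest value of all features, with 3.49 and 0.913 RPM in the IPs, against 926 and 693 RPM in the inputs. The tRNA genes WBGene00023182, WBGene00023139 and WBGene00023094 were called enriched with the same 3.49 and 0.913 RPM in the IPs, against 0 and 0 RPM in the inputs. tRNA genes exist in identical copies, and how their shared reads were split is not stated. Values and calls of single tRNA genes, in both directions, are therefore uncertain.

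Outside antisense coding features 3 values exceeded that of sin-3. Antisense to sls-2.4, an SL2 spliced leader RNA gene, there were 107 and 53.5 RPM in the IPs, against 0 and 3.55 RPM in the inputs. rrn-4.3 and rrn-4.4, genes of the 5S rRNA with many near-identical copies, had log2 fold changes of 4.59 ± 1.2 and 4.29 ± 1.1 (SE) in sense reads. Both calls were lost with no filter on low values. rrn-4.3 had 386 and 78.6 RPM in the IPs, against 22.4 and 1.28 RPM in the inputs. rrn-4.4 had 174 and 12.6 RPM in the IPs, against 1.27 and 1.75 RPM in the inputs. In all 3 both IPs were above both inputs, and IP 1 was above IP 2. Among the small antisense classes, 34 of 51 antisense snRNA features were enriched and 1 depleted. Enriched were also 4 of 4 antisense rRNA, 13 of 23 antisense tRNA and 22 of 50 antisense snoRNA features. sls-2.13, a gene of the SL2 spliced leader RNA, which is listed among snRNAs, had antisense reads of 109.8 and 96.05 RPM in the IPs, against 8.94 and 12.9 RPM in the inputs, a log2 fold change of 3.14 ± 0.22 (SE). rrn-2.1, the 5.8S rRNA gene, had antisense reads of 25.4 and 60.04 RPM in the IPs, against 3.96 and 1.63 RPM in the inputs, while its sense reads were 385 and 178 RPM in the IPs, against 3677 and 2919 RPM in the inputs. Antisense and sense reads of this gene thus lay on opposite sides of the inputs in all 4 libraries.

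The comparison with JMC164 asked where total CSR-1 differs from CSR-1b alone. Each strain contributes its own IP minus input difference on the log2 scale, since the tables were made separately. Of 15296 features that passed the filter in both tables, 0 were higher (0%) and 2 lower (0.0131%) in JMC101 in limma's interaction test, with 265 at an unadjusted p under 0.05 and 0 calls in edgeR. The median difference was -0.03. Antisense coding features had a median difference of 0.02 over 9520, and miRNAs -1.24 over 156. The 2 calls were F07B7.1 and F42A9.6. F42A9.6 had 52.5 and 38.1 RPM in the IPs, against 50.4 and 48.9 RPM in the inputs of JMC101, and 162 and 165 RPM in the JMC164 IPs, against 22.2 and 22.7 RPM in their inputs, a difference of -2.96 ± 0.26 (limma adjusted p = 0.029). F07B7.1 had 2.09 and 1.98 RPM in the IPs, against 20.1 and 19.6 RPM in the inputs of JMC101, and 34.4 and 34.3 RPM in the JMC164 IPs, against 25.4 and 17.7 RPM in their inputs, a difference of -3.45 ± 0.33 (limma adjusted p = 0.032). Both calls were lost with TMM factors and in edgeR; that of F07B7.1 was lost without any 1 of the 8 libraries and that of F42A9.6 without any except IP 1 of JMC101. A p that misses the threshold does not show that the cargoes are the same, and the JMC164 replicates differed in depth (19990023 and 2818397 input reads). The lists are given side by side without a test. For example, 24 of 24 oocyte genes were enriched in both strains (50.1% of 10527 antisense coding features were in JMC164), with medians of 2.98 in JMC101 and 2.89 in JMC164, and 37 of 37 kinetochore genes, with medians of 3.08 in JMC101 and 2.96 in JMC164. Further apart were histones, with medians of 1.24 in JMC101 and 0.80 in JMC164, major sperm proteins, with 0.50 in JMC101 and 0.85 in JMC164, and intestine genes, with 0.42 in JMC101 (1 of 10 enriched) and -1.17 in JMC164 (0 of 8).

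The comparison with JMC151 asked where total CSR-1 differs from CSR-1a, and many features did. Of 8539 features 1987 (23.3%) were higher and 1453 (17%) lower in JMC101 than in the CSR-1a IP, relative to each strain's inputs. Among 6332 antisense coding features 1931 (30.5%) were higher and 996 (15.7%) lower. With TMM factors the median difference over all features was 0.05 in place of -0.35, and 2730 features were higher and 1222 lower; with those over every feature the median was 0.87, with 3515 higher and 644 lower; without miRNA it was -0.67, with 1750 higher and 2311 lower. The JMC151 libraries were shallower, at 1302211 to 1562177 reads. Lower in JMC101 were also 49 of 123 miRNAs, 12 of 20 rRNA, 32 of 52 piRNA and 20 of 93 tRNA features, with 0 higher in each class. Reads of no feature were 8.28% and 7.60% of the JMC101 inputs and 2.78% and 2.60% of its IPs. In JMC151 they were 9.46% and 7.36% of the inputs and 9.94% and 8.56% of the IPs. The part of this difference between the IPs in the calls was not tested. Single libraries weighed on the counts: 1102 were higher without input 1 of JMC101, 1179 without its IP 1 and 1118 without IP 2 of JMC151, and 931, 881, 532 and 637 were lower without input 1 or IP 1 of JMC101 and IP 1 or IP 2 of JMC151.

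Many genes of chromosomes, germ granules and the small RNA pathway, and of the proteasome and mitochondrial ribosomes, were higher in the IP of total CSR-1, read against 30.5% of all antisense coding features. Of the 22 DNA replication genes tested in both strains 21 were higher and 0 lower (median difference 2.76), and 20 of 21 meiotic genes (2.76), 15 of 18 germ granule genes (2.67), 25 of 34 kinetochore genes (1.96), 9 of 16 oocyte genes (2.12), 18 of 33 proteasome genes (1.59) and 24 of 28 mitochondrial ribosomal proteins (2.18) were higher. With at least 50 reads only 2 DNA replication, 3 meiotic and 2 oocyte genes were higher, and with no filter 13 meiotic, 7 germ granule, 4 oocyte, 4 kinetochore and 2 proteasome genes were. With the TMM factors over every feature all 16 oocyte genes were higher. The kinetochore count was 9 to 14 without input 1, input 2, IP 1 or IP 2 of JMC101 or IP 2 of JMC151, and the proteasome count 2 to 9 in the same cases, but 28 without input 2 of JMC151 and 31 with the TMM factors over every feature. The mitochondrial ribosomal count was 9 to 15 without input 1, IP 1 or IP 2 of JMC101 or either IP of JMC151. Of 36 genes of the small RNA pathway 23 were higher and 4 lower (median difference 2.31; 11 higher with at least 50 reads and 11 with no filter). mut-14, a helicase gene, prde-1, needed for piRNA transcription, and the Argonaute genes alg-5 and ppw-2 differed most, by 3.67, 3.59, 3.53 and 3.52. The 4 lower were alg-1, rrf-2, sago-1 and wago-10, at -3.58, -3.25, -2.74 and -1.96, and 1 or 2 were lower without IP 1 of JMC101 or either IP of JMC151. The 6 features highest against CSR-1a were WBTransposon00000730 and the genes set-21, popl-1, C55B7.11, dsb-3 and C46A5.6. set-21, a SET-domain gene, had 788 and 721 RPM in the IPs, against 80.2 and 91.3 RPM in the inputs of JMC101, and 15.7 and 28.9 RPM in the JMC151 IPs, against 64.2 and 43.9 RPM in their inputs, a difference of 4.40 ± 0.56. dsb-3, needed for meiotic double-strand breaks, differed by 3.97.

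Major sperm protein, histone and intestine genes lay on the other side, read against 15.7% of all antisense coding features that were lower. Of 21 major sperm protein genes tested in both 16 were lower and 0 higher (median difference -2.45), and all 21 were enriched in the CSR-1a IP, where 42.5% of 6524 antisense coding features were. Of 50 histone genes 30 were lower and 0 higher (-2.04; 2 higher with TMM factors), and of 8 intestine genes 7 were lower (-4.84), with 12 of 12 enriched in the CSR-1a IP. Genes could pass the JMC151 filter on their IP reads alone. The shares enriched there describe only the genes that passed, 12 of 24 listed for the intestine and 21 of 31 for major sperm proteins. The counts of lower genes were smaller without single libraries. With the TMM factors over every feature 5 sperm protein and 18 histone genes were lower, and with no filter 5 and 11. For the sperm protein genes they were 9 without IP 1 of JMC101, and 1 and 4 without IP 1 and IP 2 of JMC151. For the histones they were 17 without IP 1 of JMC101 and 13 without IP 1 of JMC151. For the intestine genes they were 3 and 4 without IP 1 and IP 2 of JMC101, and 1 without either IP of JMC151. Of 25 spermatogenesis genes 4 were lower and 0 higher (-0.77), a share near the 15.7% of all antisense coding features. With the TMM factors over every feature 1 was higher and 0 lower, and without miRNA 10 were lower. Between 0 and 2 were lower without input 1, input 2 or IP 1 of JMC101 or input 2 or IP 1 of JMC151. The cytosolic ribosomal proteins, bound in both, had medians of 2.41 in JMC101 and 3.14 in JMC151, with 1 of 74 higher and 5 lower; with the TMM factors over every feature 9 were higher and 0 lower, without miRNA 18 were lower and with the replicate block 14. Without single libraries 0 to 2 were higher and 1 to 26 lower, the last without input 1 of JMC151. Among single genes, ZK402.2 had 19.9 and 26.2 RPM in the IPs, against 49.8 and 28.03 RPM in the inputs of JMC101, and 1770 and 1859 RPM in the JMC151 IPs, against 0 and 115 RPM in their inputs. gfi-1 had 13.7 and 14.5 RPM in the IPs, against 7.95 and 5.97 RPM in the inputs of JMC101, and 572 and 563 RPM in the JMC151 IPs, against 0 and 6.49 RPM in their inputs. ftn-2, a ferritin, had 6.08 and 8.903 RPM in the IPs, against 7.93 and 9.54 RPM in the inputs of JMC101, and 377 and 283 RPM in the JMC151 IPs, against 3.39 and 1.44 RPM in their inputs, a difference of -6.86 ± 0.59. K02E2.6 and linc-22, depleted from the IPs of total CSR-1, were higher in the CSR-1a IPs than in their inputs, with log2 fold changes of 2.24 and 1.39.

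**Figure D5:**
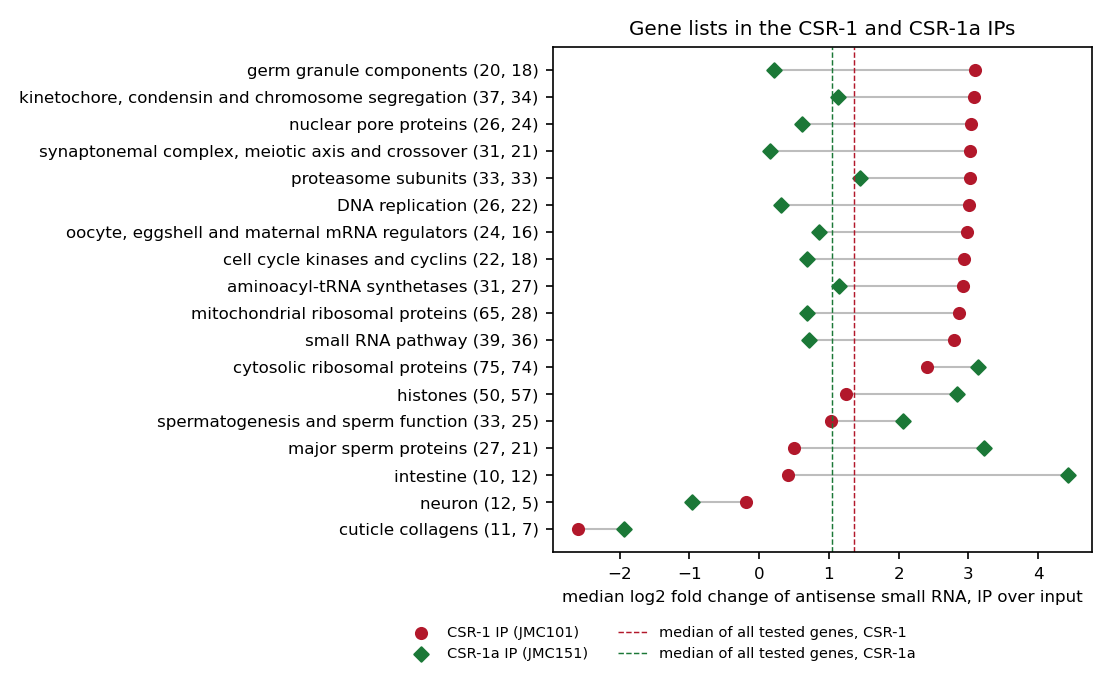
Median log2 fold change, IP over input, of the antisense small RNA of the gene lists in JMC101 (red circles) and JMC151 (green diamonds), with the numbers of genes tested in each table in brackets and dashed lines at the median of all tested antisense coding features. Red circles lie right of green diamonds from germ granule components to the small RNA pathway, and left of them from cytosolic ribosomal proteins to intestine.

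Of 3738 antisense coding genes enriched with total CSR-1 and tested in both tables, 1583 were also enriched with CSR-1a, 2143 passed neither CSR-1a test and 12 were depleted there. The 1583 were 42.3% of the genes enriched with total CSR-1, near the 40.97% of all 6332 genes that were enriched with CSR-1a, and 61.0% of those. Of 1352 depleted with total CSR-1, 180 were enriched with CSR-1a and 896, or 66.3%, depleted, beside 15.5% of all 6332. Of 1242 that passed neither test with total CSR-1, 831, or 66.9%, were enriched with CSR-1a. These 1242 genes had a median log2 fold change of 0.08 in JMC101 and 1.81 in JMC151.

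Messenger RNA of N2 animals gave a readout that the calls had not used. Of 5288 genes with enriched antisense small RNA 98.2% had at least 10 counts in all 3 N2 libraries. The shares were 64.1% of 1953 depleted genes, 87.1% of 2558 genes with neither call, 47.9% of 9258 listed genes that could not be tested and 68.1% of all 19390 genes. The tag checked the labels of the mRNA libraries: gfp had 172, 772 and 222 counts in JMC164, against 1, 0 and 0 counts in N2. In JMC164 against N2, edgeR called 11 of 13739 genes higher (0.0801%) and 236 lower (1.72%) in the mutant. JMC164 lacks CSR-1a and also carries the tor67 tag, which N2 does not. The tag and the loss of CSR-1a cannot be told apart in this comparison. Of 5231 tested genes with enriched antisense small RNA 0 were higher and 9 lower. grl-26, a Hedgehog-related gene, had 0.402, 0.266 and 0.333 CPM (counts scaled to 1000000) in the mutant, against 7.17, 6.82 and 4.85 CPM in N2. cutl-23, a cuticlin-like gene, had 6.03, 4.85 and 6.54 CPM in the mutant, against 34.0, 37.2 and 40.4 CPM in N2. tnsl-1 and the autophagy genes epg-9 and lgg-2 fell by 2.29, 1.44 and 1.17 on the log2 scale. csr-1 itself had 145, 222 and 33.1 CPM in the mutant, against 124, 143 and 247 CPM in N2 (log2 fold change -0.37, edgeR adjusted p = 0.80). The mRNA calls rested on single libraries: 0 genes were called without mutant replicate 1 or 2 or N2 replicate 1 or 2, and 923 were higher and 1399 lower without mutant replicate 3 (266 and 81 of the genes with enriched antisense small RNA). Without N2 replicate 3, 4 were higher and 131 lower. In mutant replicate 3 the 12 germline markers summed to 176.5 CPM, against 1165 and 1590 CPM in the other two mutant libraries and 268, 305 and 971 CPM in N2. The part of this difference in the calls was not tested.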

How the data were processed

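Per the labels' protocols, lysates of whole L4 animals gave total small RNA (input) and anti-GFP immunoprecipitates, RNA was treated with a 5′ polyphosphatase, and libraries were made with a NEBNext small RNA kit, while mRNA libraries were poly(A)-selected and directional. The submitters' processing notes name cutadapt, STAR, FastQC and DESeq2; no build or counting setting is stated. The small RNA values were deposited as RPM per library, with an offset of 0.01 RPM and reads of no feature included (2.60% to 8.28% in JMC101 and up to 9.94% in the other tables). The mRNA tables were deposited as raw counts per gene, with 7457580 to 18775147 counts a library; 6 columns of libraries grown at a higher temperature were not used.

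The offset was removed, reads of no feature were left out and RPM were recomputed. Values of at most 20 reads came out as whole reads (within 0.02 reads) in 74.5% to 87.2% of cases, which gave the estimated depth. Features with at least 10 estimated reads in at least 2 of 4 libraries were tested with limma 3.58.1 (trend) on log2(RPM + 1), which understates changes of low features; a call needed a Benjamini-Hochberg adjusted p under 0.05 and a change of 1 or more in log2. JMC101 was set against JMC164 and JMC151 by the difference of the IP over input values. Counts were tested with edgeR 4.0.16 (quasi-likelihood, TMM). Scripts were tested on simulated data. A planned N2 level per coding length could not be computed and was replaced by detection (at least 10 counts). Symbols were found for 36868 of 39443 gene IDs. Named features were the largest changes overall and by class, the highest in IP and input, list members, and the largest differences between strains; the 8 highest antisense features in IP and input and the miRNAs highest in the IPs were added after values were seen. The members and gene lists were chosen with earlier results of these data known. No small RNA library was identical to another of its own table. Alternatives were other scalings, pseudocounts, filters and tools, and each library left out. R 4.3.3, DESeq2 1.42.0, Python 3.11.15, pandas 2.3.3 and matplotlib 3.10.9 were used.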

Additional observations from a re-analysis of the deposited data

Results flagged for a closer look

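These features differed between total CSR-1 and a single isoform in limma's test of the difference of log2 IP over input values (adjusted p under 0.05). Against CSR-1b, F07B7.1 differed by -3.45 and F42A9.6 by -2.96. Against CSR-1a, the highest differences were those of WBTransposon00000730 (7.38), set-21 (4.40), popl-1 (3.99), C55B7.11 (3.98), dsb-3 (3.97) and C46A5.6 (3.92). WBTransposon00000730 had 8.30 and 16.5 RPM in the JMC101 IPs, against 0 and 66.6 RPM in the inputs, its JMC101 value was -2.41 without input 1 and 3.67 without input 2, and the difference lost its call in edgeR. The lowest differences against CSR-1a were those of ZK402.2 (-8.09), H03A11.2 (-7.45), WBTransposon00000712 (-7.07), ftn-2 (-6.86), gfi-1 (-6.77) and Y17D7C.6 (-6.64).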

How the results depend on the processing

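The 5717 enriched features numbered 4237 to 6963 under the other settings and 4897 to 5711 with 1 library left out. The 5294 depleted features were 3294 with a pseudocount of 5 RPM, 2233 with at least 50 reads, 3349 at a log2 fold change of 2, and 4096 to 4795 with 1 library left out. The labels do not say whether a shared replicate number marks paired samples, and the main fits treated the libraries as unpaired. The replicate differences of the JMC101 IPs and inputs correlated with 0.27, and the mRNA pairs gave -0.26, -0.32 and -0.43. Whether IPs and inputs were paired was not tested. With the replicate block 5777 features were enriched and 5645 depleted. The 2 calls against CSR-1b became 0 with TMM factors, 3 with those over every feature, 1 with a pseudocount of 5 RPM, 0 without a filter, 0 in edgeR, 5 without miRNA, 35 with the replicate block and 0 to 1 with 1 library left out. Against CSR-1a the calls in both directions were 793 with at least 50 reads and 1755 to 4007 with 1 library left out. The higher ones were 1156 without a filter, 326 with at least 50 reads, 3515 with TMM factors over every feature, 2465 with the replicate block and 1102 to 2688 with 1 library left out. The lower ones were 467 with at least 50 reads, 644 with TMM factors over every feature, 2311 without miRNA, 2196 with the replicate block and 532 to 1881 with 1 library left out. In the mutant mRNA 78 genes were higher and 432 lower with DESeq2, 20 higher with no minimum fold, 0 higher and 0 lower with the replicate block, and 0 to 923 higher and 0 to 1399 lower with 1 library left out. The cause of these changes was not tested.

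IP minus input shares, in percentage points, moved as follows with structural RNAs left out: antisense coding 55.77, antisense lincRNA -2.363, antisense pseudogene -3.931 and antisense transposon -4.781. With reads of no feature included they were -1.974, -3.203 and -3.96 for the last 3. With 1 library left out they ranged from 56.39 to 58.88 (antisense coding), -38.09 to -30.94 (miRNA), -2.296 to -1.474 (piRNA), -2.174 to -2.146 (antisense lincRNA), -3.603 to -3.491 (antisense pseudogene), -4.492 to -4.208 (antisense transposon), -2.496 to -1.854 (sense coding), -7.277 to -2.41 (rRNA) and -1.83 to -1.624 (tRNA). The share of genes detected in N2 mRNA ranged from 98.18% to 98.49% (enriched), 64.62% to 66.0% (depleted), 87.41% to 89.05% (neither call), 48.59% to 49.5% (not tested) and 68.68% to 69.43% (all) with 1 library left out. CPM without division by length was not run. The shallow JMC151 libraries limit what could be tested against CSR-1a.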
